A study of Drosophila melanogaster with 6 samples.

Results

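In brains of wandering Drosophila melanogaster larvae, 108 genes had 1 main transcript in control brains and another in brains whose E347 neurons expressed either a dominant-negative dynamin or an added sodium channel. They were chosen by their values from 14012 genes. A gene qualified if it had at least 2 annotated transcripts and a gene sum, the FPKM of all its transcripts added, of at least 20 FPKM in control, ablation and activation. FPKM is a count of sequenced fragments corrected for transcript length and for the size of the library. Of the 3556 genes with at least 2 transcripts, 1623 qualified. The main transcript is the one with the largest FPKM in a group. A gene was kept when control had the same main transcript in both tables that hold control, when ablation and activation shared another one, and when the share of that other transcript in the gene sum was at least 30 percentage points higher than in control in both tables. These 108 genes are 6.65% of the qualifying genes, a share that depends on the thresholds of the rule. The values that chose them are described below without a test.

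RNA was sequenced from 6 pools of larval brains, 2 in each of 3 groups (wandering stage, 25 °C, yeast at 35 g per liter). All larvae carried the driver E347-GAL4, which turns on UAS transgenes in E347 neurons. Control larvae came from w, E347-GAL4 over w1118 with no transgene (pools of 100 and 86 brains). Activation larvae were w, E347-GAL4 over yw with UAS-NachBac, a bacterial sodium channel that makes neurons more excitable (100 and 97 brains). Ablation larvae were w, E347-GAL4 over yw, UAS-ShiDN and a further UAS-ShiDN, a dominant-negative form of the dynamin gene shibire (100 and 91 brains), and the series calls this state ablation. The w1118 chromosome is particular to control and the yw background to both manipulated groups, so background and manipulation cannot be told apart in any difference from control. The authors' tables hold 1 value per group and none per pool, so values have no SD, and the depth is unknown. Whether any change of main transcript exceeds the spread between pools could not be tested here. The authors' own p-values test a difference between groups under a model whose options are not given. How the spread between pools entered that model is therefore unknown. Nothing in the labels says how separate the pools' cultures were.

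Many fly genes make several messenger RNAs from 1 locus, by starting transcription at different promoters, by splicing exons in different combinations, or by ending the transcript at different sites. Such transcripts can encode proteins that differ in a few residues or in whole domains, or the same protein with other untranslated ends. Neurons use this widely: channels, adhesion molecules and RNA-binding proteins of the nervous system have brain-specific forms. From short reads, the level of each transcript is an estimate, since most reads fit several transcripts of the gene. When a program divides the reads of a gene among nearly identical transcripts, a gain of one is a loss of another.

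Across the 108 genes the exchange was nearly complete in many and partial in others. The transcript that led in both manipulated groups took a median 29.4% of the gene sum in control (0 to 49.7%), 77.1% in ablation (31.3 to 100%) and 81.2% in activation (36.4 to 100%). The main transcript of control took a median 64.3% in control (34.6 to 100%), 6.60% in ablation (0 to 45.7%) and 6.64% in activation (0 to 46.4%). In ablation that transcript was under 1 FPKM in 37 genes and listed at 0 in 12 of these, and in activation it was under 1 FPKM in 42 genes and listed at 0 in 15. It was listed at 0 in both manipulated groups for 2 genes. The other transcript held at least 99% of the gene sum in 18 genes in ablation and in 20 in activation, and in 9 genes in both. In bulk brains, fewer cells that use a transcript and less of it per cell cannot be told apart.

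**Figure D1:**
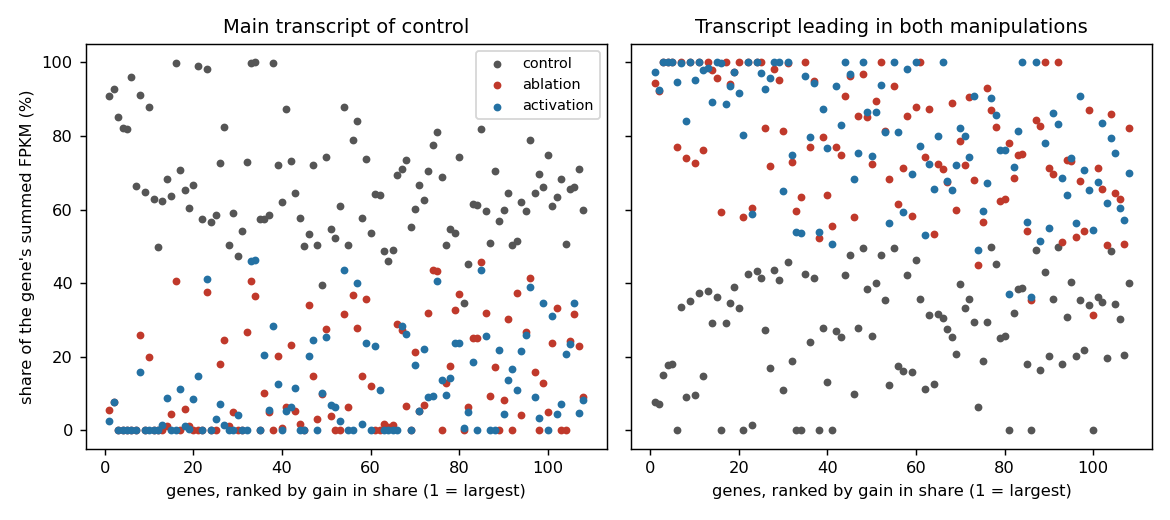
Share of the gene's summed FPKM held by the main transcript of control (left) and by the transcript that leads in both manipulations (right), for the 108 genes ranked by the smaller of their gains in share. Each point is the authors' group value for control, ablation or activation; the ranking is by the values that chose the genes, so the separation of control from the other groups is set by the rule.

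The smaller of the 2 gains in share had a median of 44.1 percentage points and a maximum of 86.6. It was under 40 points in 41 genes, from 40 to under 50 in 25, from 50 to under 60 in 29 and at least 60 in 13. Just inside the threshold were simj, a subunit of the NuRD chromatin complex, at 30.002 points and Patronin, which binds microtubule minus ends, at 30.1. Just outside were Arp2, a subunit of the actin-nucleating Arp2/3 complex, at 29.7 points and sm, an hnRNP protein, at 29.6.

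The largest gain belonged to CG8557, a number that the reference gives as a synonym of CG43658. Its RC transcript had 22.1 FPKM in control, 1.27 FPKM in ablation and 0.599 FPKM in activation, and its RB transcript had 1.88, 21.3 and 21.8 FPKM. The gene sum was nearly level, at 24.3, 22.5 and 22.4 FPKM. PIG-B, a mannosyltransferase of GPI anchor synthesis (dm3, 3L from 3811269 to 3813967), followed: RB had 51.7 FPKM in control, 4.81 FPKM in ablation and 4.08 FPKM in activation, while RA had 4.02, 58.0 and 49.7 FPKM. For flfl, a regulatory subunit of protein phosphatase 4, the RD transcript had 55.3 FPKM in control and under 0.01 FPKM in both manipulated groups. The RB transcript of flfl had 9.73 FPKM in control, 51.5 FPKM in ablation and 60.9 FPKM in activation. In these 3 genes the transcript that led in control and the one that led elsewhere traded places at a similar level.

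Further genes among the 20 with the largest gains were Aplip1, CRMP, Syx6 and Scamp. Aplip1, a scaffold that ties kinesin to the JNK pathway in axonal transport (dm3, 3L from 1196321 to 1199341), had RA at 85.3 FPKM in control and under 0.01 FPKM in ablation and in activation. Its RB transcript had 18.9 FPKM in control, 95.0 FPKM in ablation and 77.2 FPKM in activation. CRMP, whose locus makes a collapsin response mediator protein and a dihydropyrimidinase by alternative splicing, had RE at 71.0 FPKM in control, 13.9 FPKM in ablation and listed at 0 in activation. Its RA transcript had 7.78, 50.3 and 87.1 FPKM, so the exchange was partial in ablation and complete in activation. Syx6, a syntaxin of Golgi and endosome traffic, had RB at 11.7 FPKM in control and under 0.01 FPKM in ablation and activation, and RD at 3.49, 24.7 and 33.2 FPKM. Scamp, a secretory carrier membrane protein, had RB at 73.2 FPKM in control, listed at 0 in ablation and at 5.75 FPKM in activation. Its RA transcript had 30.3, 47.1 and 44.9 FPKM, and the gene sum was 103.5 FPKM in control against 47.1 and 50.7 FPKM. In Scamp RA was thus higher by less than RB was lower.

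Pink1 and REPTOR-BP had almost none of the shared transcript in control. Pink1, a kinase that acts with parkin in mitochondrial quality control (dm3, X from 6577831 to 6581051), has 8 transcripts in the tables. RD held 96.0% of its gene sum in control (23.6 FPKM), and was listed at 0 in ablation and under 0.01 FPKM in activation. RH was at 0.00290 FPKM in control, 24.0 FPKM in ablation and 22.1 FPKM in activation, and RC, which led in no group, had 7.06 FPKM in ablation against under 0.01 FPKM in the other 2 groups. REPTOR-BP, the bZIP partner of the transcription factor REPTOR downstream of TORC1, was the gene where activation and ablation were farthest apart with activation higher. Its RB transcript had 61.5 FPKM in control, 53.1 FPKM in ablation and was listed at 0 in activation, while RC had 0.00412, 77.6 and 90.0 FPKM. In ablation RC was thus added to a nearly level RB, and in activation RC stood in its place.

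**Figure D2:**
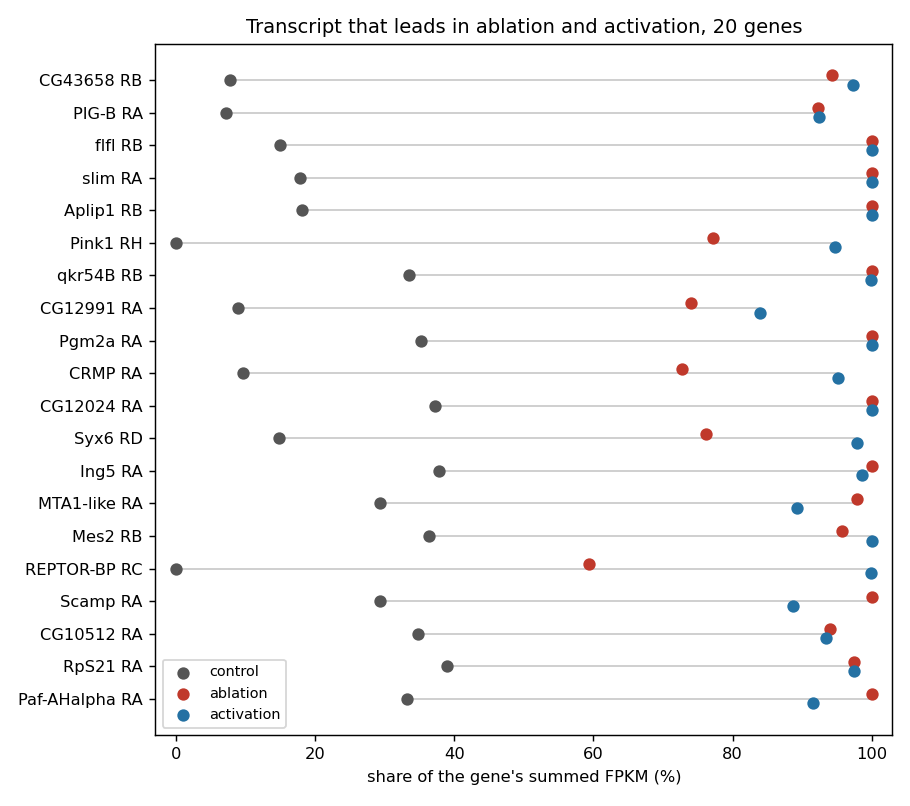
Share of the gene's summed FPKM (%) held by the transcript that leads in ablation and activation, for the 20 genes with the largest gain; grey, red and blue points are the authors' group values of control, ablation and activation. In control the share runs from near 0 (Pink1 RH, REPTOR-BP RC) to about 39% (RpS21 RA), and in the manipulated groups from 59.4% (REPTOR-BP in ablation) to 100%.

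Ing5, MTA1-like, Mes2 and qkr54B are also among the leading 20, and none of them stands in the lists of chromatin or RNA-processing genes described below. Ing5, a PHD finger protein of the inhibitor of growth family, had RB at 17.2 FPKM in control, under 0.01 FPKM in ablation and 0.503 FPKM in activation, and RA at 10.4, 41.4 and 35.5 FPKM. MTA1-like, a subunit of the NuRD complex, had RB at 62.9, 0.736 and 6.53 FPKM and RA at 26.9, 67.2 and 65.5 FPKM. Mes2 had RC at 34.4 FPKM in control, 2.56 FPKM in ablation and listed at 0 in activation, and RB at 19.6, 56.7 and 62.1 FPKM. The KH-domain RNA-binding gene qkr54B had RC at 61.4 FPKM in control and under 0.1 FPKM in both manipulated groups. Its RB transcript was at 30.9, 61.9 and 57.1 FPKM, so the gene sum was 92.3 FPKM in control and 61.9 and 57.1 FPKM elsewhere. In all 4 genes the transcript that led in ablation and activation was already present in control at 10 FPKM or more.

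RpS21, a protein of the small ribosomal subunit (dm3, 2L from 2856070 to 2857041), had the highest level of the set. RE had 3566 FPKM in control, 62.2 FPKM in ablation and 24.3 FPKM in activation, and RA had 2296, 4712 and 5889 FPKM. The gene sum was 5899 FPKM in control, 4835 FPKM in ablation and 6044 FPKM in activation. It was the only one of 45 qualifying cytoplasmic ribosomal protein genes among the 108. The remaining genes of the leading 20 had the same form, with values in control, ablation and activation given in that order. Paf-AHalpha, a subunit of platelet-activating factor acetylhydrolase, had RB at 86.5 FPKM, listed at 0 and 12.0 FPKM, and RA at 43.0, 115.5 and 130 FPKM. The phosphoglucomutase family gene Pgm2a had RB at 47.6 FPKM, then under 0.01 FPKM in both, and RA at 25.9, 59.4 and 56.9 FPKM. For slim, RB was at 30.04 FPKM and then under 0.01 FPKM in both, with RA at 6.53, 23.1 and 24.04 FPKM. CG12024 RA stood at 17.8, 37.8 and 38.6 FPKM, CG12991 RA at 2.24, 24.9 and 22.7 FPKM, and CG10512 RA at 7.64, 19.3 and 20.2 FPKM. These last 3 genes had control's main transcript at 30.03, 22.7 and 14.4 FPKM in control and at most 8.70 FPKM elsewhere.

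**Figure D3:**
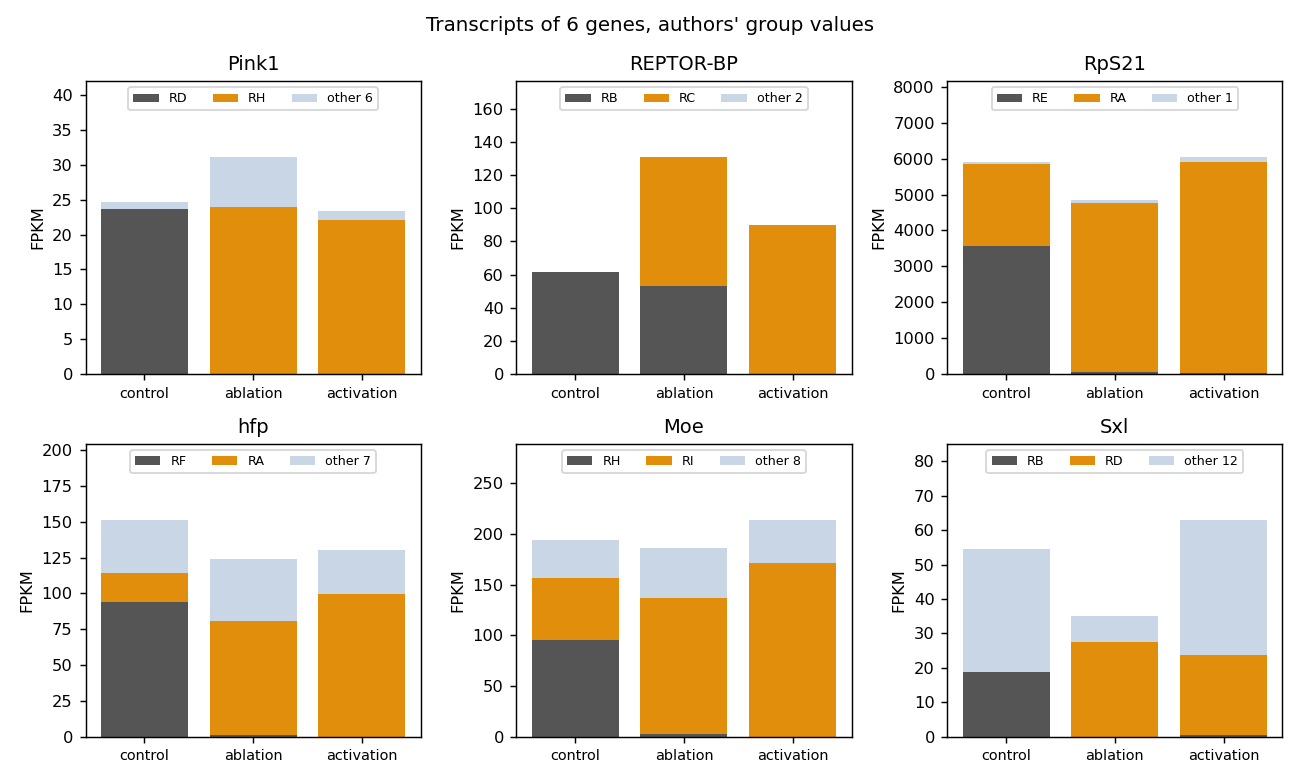
Authors' group values in FPKM of control's main transcript (dark grey), the transcript shared by ablation and activation (orange) and all other transcripts of the gene (pale) in control, ablation and activation. In REPTOR-BP the dark segment remains in ablation at 53.1 FPKM, in RpS21 the sums are similar while the segments trade places, and in Sxl the other transcripts make up more than 50% of the control bar.

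Of 11 lists of gene functions, 4 held members. RpS21 was 1 of 45 qualifying ribosomal genes (2.22%), and hfp, bru3 and Sxl were 3 of 35 RNA-processing genes (8.57%). Moe was 1 of 18 cytoskeleton genes (5.56%) and brm 1 of 16 chromatin genes (6.25%). Of all qualifying genes 6.65% were chosen, so nothing is read from these shares. The lists of translation factors, synapse and vesicle release, calcium and kinase signalling, respiratory chain, ubiquitin and proteasome, membrane traffic and chaperones held none, with 10 to 27 qualifying genes each. The lists do not hold every gene of a function: Syx6 and Scamp, described above, stand in none. A list without members thus does not show that its function is absent from the 108 genes. In all, 6 of the 108 genes (5.56%) and 226 of the 1623 qualifying genes (13.9%) stand in a list. No marker of midgut, fat body, muscle, cuticle, salivary gland or haemocytes qualified, and none is among the 108.

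From the RNA-processing list came hfp, the fly relative of the splicing factor PUF60, with 9 transcripts. Its RF transcript had 94.0 FPKM in control, 0.965 FPKM in ablation and 0.00518 FPKM in activation, and RA had 20.1, 79.7 and 99.8 FPKM. The other 7 transcripts of hfp held the rest of gene sums of 151, 124 and 130 FPKM. For bru3, a CELF family RNA-binding protein, RB had 28.2 FPKM in control, 9.78 FPKM in ablation and 10.2 FPKM in activation, and RA had 9.69, 25.6 and 29.97 FPKM. Sxl, the RNA-binding switch of sex determination, which regulates its own splicing and has female and male transcripts (dm3, X from 6969698 to 6992086), has 14 transcripts under the number CG18350. RB led in control with 18.9 FPKM, 34.6% of the gene sum, and was listed at 0 in ablation and at 0.451 FPKM in activation. The RD transcript had 0.00706 FPKM in control, 27.4 FPKM in ablation and 23.4 FPKM in activation. The gene sum under this number was 54.6 FPKM in control, 35.2 FPKM in ablation and 62.996 FPKM in activation. The tables hold a second number that the reference also gives as Sxl, CG14425, with 13.6, 53.0 and 21.2 FPKM. In ablation the sum was thus lower than in control under CG18350 and higher under CG14425, so no direction is given for Sxl as a whole. For bru3 too there is a second number, CG34243, with 5.34, 1.32 and 9.54 FPKM beside the CG12478 described here. Under CG18350 the other 12 transcripts took 65.4% of the sum in control, 22.0% in ablation and 62.2% in activation, so RD led in activation with only 37.1%. The sex of the larvae in each pool is not stated in the labels, and its part in these values was not tested.

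The chromatin gene brm, the ATPase of the SWI/SNF remodelling complex, had RD at 67.1 FPKM in control, 0.00355 FPKM in ablation and 9.98 FPKM in activation. RA was listed at 0 in control and had 46.8 FPKM in ablation and 53.8 FPKM in activation. In ablation another transcript, RC, had 31.2 FPKM, against 0.583 FPKM in control. Moe, the ERM protein that links actin to the membrane (dm3, X from 8767636 to 8792343), has 10 transcripts. RH had 95.2 FPKM in control, 2.76 FPKM in ablation and 0.0148 FPKM in activation, and RI had 61.4, 134 and 171 FPKM.

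Other members were picked after their values were seen, to show the range of functions. Among metabolic genes, Gdh, the mitochondrial glutamate dehydrogenase, had RB at 114 FPKM in control, 1.54 FPKM in ablation and listed at 0 in activation, and RF at 31.2, 104 and 113 FPKM. Another Gdh transcript, RE, led in no group but had 102, 83.3 and 51.8 FPKM. ATPCL, the ATP citrate lyase of fatty acid synthesis, had RA at 33.0 FPKM in control and under 0.01 FPKM elsewhere, and RC at 31.4, 65.2 and 71.8 FPKM. Pfk, the phosphofructokinase of glycolysis, had RC at 42.3, 5.46 and 12.8 FPKM and RB at 24.1, 70.4 and 43.0 FPKM. Treh, which splits the blood sugar trehalose, had RB at 29.4, 1.29 and 0 FPKM and RC at 18.8, 67.7 and 41.6 FPKM. The exchange in these 4 enzymes came with gene sums at most 1.39 times higher or lower than control.

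Among signalling genes, ImpL2, a secreted antagonist of insulin-like peptides (dm3, 3L from 4224699 to 4236147), had the largest difference in gene sum in ablation. Its RC transcript had 130 FPKM in control, 22.3 FPKM in ablation and 6.56 FPKM in activation, and RA had 10.9, 22.9 and 34.9 FPKM. RA led in ablation by 22.9 to 22.3 FPKM only. The remaining transcript, RB, had 26.7, 5.86 and 29.7 FPKM. In activation RB thus held 41.7% of the gene sum, beside 49.1% for RA. The gene sum of ImpL2 was 167 FPKM in control, 51.1 FPKM in ablation and 71.2 FPKM in activation. CrebB, the fly CREB transcription factor of long-term memory, had RK at 44.7, 10.7 and under 0.01 FPKM and RF at 9.96, 18.0 and 17.6 FPKM, with gene sums of 56.7, 29.3 and 21.7 FPKM. For both genes control's main transcript was lower in the manipulated groups by more than the transcript that led there was higher. Diap1, the inhibitor of caspases, had RC at 189, 110 and 17.1 FPKM and RA at 103.3, 216 and 311 FPKM. Fas3, a cell adhesion molecule, had RD at 29.0, 3.99 and 3.74 FPKM and RB at 20.4, 42.7 and 52.5 FPKM.

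In the authors' deposited tables, Cuffdiff called 0 of the 206 tested main and other transcripts of these genes in ablation against control and 0 of 206 in activation against control, at q of at most 0.05. Over all tested transcripts 0.154% and 0% were called. At an unadjusted p under 0.05 there were 9 of 206 in ablation and 14 of 206 in activation (4.37% and 6.80%), against 2.05% and 3.05% of all tested transcripts. Most were main transcripts of control, with 7 of 100 tested in ablation and 13 of 100 in activation. Of the transcripts that led in the manipulated groups, 2 of 106 and 1 of 106 were among them. The rule used these contrasts, so nothing is read from these counts. The lowest unadjusted p in the authors' deposited tables was 0.0113 in ablation, for brm RD, and 0.00585 in activation, for CG11357 RB. The lowest q were 0.974 and 0.915. For Pink1 RD, p in the authors' deposited tables was 0.122 in ablation and 0.0259 in activation, and for Aplip1 RA it was 0.018 and 0.02085. For the transcripts that led in the manipulated groups, Cuffdiff's p was 0.205 and 0.205 for Pink1 RH. It was 0.196 and 0.198 for Aplip1 RB. None of the tested main and other transcripts thus passed Cuffdiff's threshold. Further transcripts named above, such as Pink1 RC, brm RC and Gdh RE, are not part of these counts. In each of these tables, 10 of the 216 transcripts had too little data by Cuffdiff's own status, 8 of them main transcripts of control.

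The table that sets activation directly against ablation was not used by the rule, although its values come from the same pools. In it, the transcript shared by both groups led in both for all 108 genes. Its share in activation minus that in ablation had a median of 1.73 percentage points and ran from -40.9 to 40.8. It was within 10 points in 60 genes, and was higher in activation in 65, lower in 42 and equal in 1. The 3 genes beyond 30 points were Sxl with -40.9, REPTOR-BP with 40.8 and Mvl, a metal ion transporter of the NRAMP family, with -31.2. In the authors' deposited table Cuffdiff called 0 of 189 tested transcripts of these genes here (0.370% over all tested transcripts), and 5 had an unadjusted p under 0.05 (2.65%, against 3.21%). They were Eip93F RA, Treh RC, Pfk RB, bbc RB and Diap1 RC, with p from 0.0295 to 0.0457 in the authors' deposited table. The rule itself had fixed that both groups share a leading transcript in the control tables.

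The same rule was run with activation or ablation in the place of control. Activation stood apart, with control and ablation sharing another main transcript, in 44 genes (2.71%). Ablation stood apart in 27 genes (1.66%), and control in 108 (6.65%). Without the threshold on the gain the counts were 92, 82 and 221 genes. A different main transcript was found in 350 of the 1623 genes between control and ablation (21.6%), in 358 between control and activation (22.1%) and in 218 between activation and ablation (13.4%). Each count shares a group with the others, and each group has 1 value, so these differences have no test. What share of them the estimation of transcript levels would give between pools of 1 group was not tested.

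**Figure D4:**
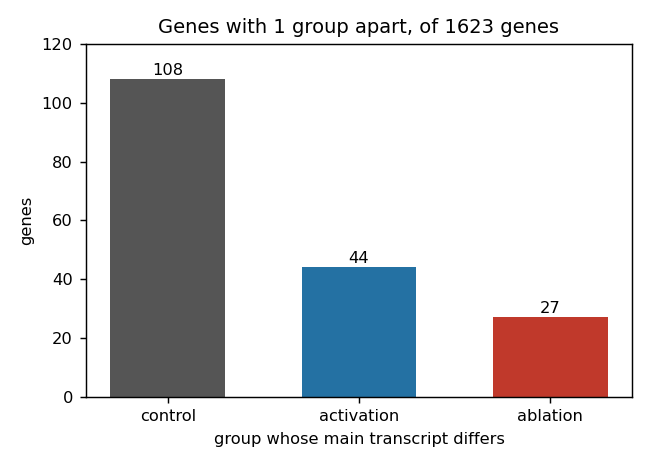
Number of genes, of 1623, in which control, activation or ablation stands apart from the other 2 groups by the same rule on main transcripts and gain in share. Control stands apart in 108 genes, activation in 44 and ablation in 27.

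Most gene sums differed little from control. On the scale of log2(FPKM + 1), the median difference of the 108 gene sums was -0.20 in ablation against control, -0.09 in activation against control and -0.08 in ablation against activation. Over the 1623 qualifying genes it was -0.02, 0.01 and -0.03. The sum was lower than in control in 75 of 108 genes in ablation (69.4%, against 51.6% of the qualifying genes) and in 70 in activation (64.8%, against 48.2%). It was within 0.5 of control in 82 genes in ablation (75.9%, against 79.7%) and in 87 in activation (80.6%, against 77.8%). The differences ran from -1.69 (ImpL2) to 1.08 (REPTOR-BP) in ablation and from -1.31 (CrebB) to 0.71 (simj) in activation. A sum of FPKM also depends on the lengths of the transcripts to which reads were given, and the part of this in the lower sums was not tested.

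**Figure D5:**
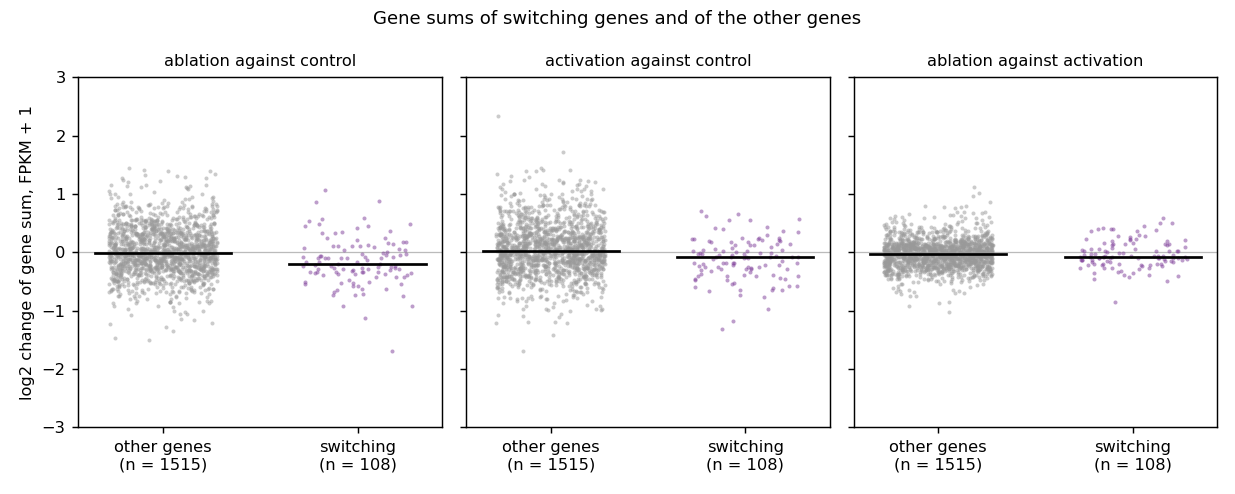
Log2 change of the gene sum (FPKM + 1) for the 108 genes with a changed main transcript and the other 1515 qualifying genes, in the 3 deposited tables. Each point is a gene and the black line is the median; the 108 genes have medians of -0.20, -0.09 and -0.08, inside the spread of the other genes.

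By number of transcripts, 43 of the 108 genes have 2 (39.8%, against 48.7% of the qualifying genes), 30 have 3 (27.8%, against 23.1%), 16 have 4 (14.8%, against 11.3%) and 19 have 5 or more (17.6%, against 16.8%). By chromosome arm, 31 lie on 3L (28.7%, against 20.2%), 28 on 2R (25.9%, against 21.1%), 17 on 3R (15.7%, against 23.3%), 15 on 2L (13.9%, against 15.8%) and 15 on X (13.9%, against 15.8%). The remaining 2 lie on heterochromatic scaffolds. Of the 108 genes 79 are alone in their locus in the tables, and 29 share it with an overlapping or adjoining gene, brm and Sxl among them. The part of neighbouring genes in their values was not tested. The RA transcript was the leading one in the manipulated groups in 42 genes and in control in 20. Shared loci and leading RA transcripts were not counted over the qualifying genes, so nothing is read from these numbers.

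How the exchanged transcripts differ could be looked up only for transcripts whose names still stand in a later annotation, BDGP6, which is another build than dm3. Both names were found for 78 of 108 genes (72.2%). A summary of length or coding sequence over the set is void, because fewer than 80% of the genes have a value and transcripts may have been redrawn since. The following values are examples from genes named above. No order, typical size or share of genes with a changed coding sequence is drawn from them. Aplip1 RB is 21 nt longer than RA, and all of it is coding. Ing5 RA has 42 coding nt more than RB, CG12024 RA 48 more than RB, brm RA 12 more than RD, and CRMP RA 15 fewer than RE. Pink1 RD and RH encode the same protein and differ at the 5′ start, as do the transcripts of CG12991. The coding sequence is also the same in both exchanged transcripts of Paf-AHalpha, Moe, Diap1 and CG11357. MTA1-like RA has 108 coding nt and 1 exon more than RB, and PIG-B RA 90 coding nt more than RB. Syx6 RD has 969 coding nt against 678 in RB, and Mes2 RB has 1311 against 1116 in RC. For CG10512 the coding length is 1338 nt in RA and 1083 nt in RD, and for hfp it is 1911 nt in RA and 1635 nt in RF. Gdh RF has 1647 coding nt against 1212 in RB, Treh RC 1788 against 1545 in RB, and Fas3 RB 1203 against 1731 in RD. The flfl transcripts differ by 21 coding nt, but RB is 3788 nt long and RD 5618 nt.

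A list of RNA-processing genes, splicing factors, hnRNP proteins and polyadenylation factors held 73 entries in the tables. Cuffdiff called 0 of their tested transcripts in each of the authors' 3 deposited tables. An unadjusted p under 0.05 was listed for 2 of 174 in ablation against control (1.15%, against 2.05% of all tested transcripts), for 5 of 178 in activation against control (2.81%, against 3.05%) and for 5 of 175 in ablation against activation (2.86%, against 3.21%). The median log2 difference of their gene sums was -0.04 in ablation against control, with 32 higher and 39 lower, beside 0.10 over all 8512 tested genes. In activation against control it was 0.10, with 42 higher and 29 lower, beside 0.10 over 8514 genes. In ablation against activation it was -0.12, with 19 higher and 53 lower, beside 0.01 over 8959 genes. The 3 with the highest control sums were B52, an SR protein of splicing, at 767 FPKM in control and 690 FPKM in ablation, Rm62, a DEAD-box helicase, at 466 and 584 FPKM, and Pep, an RNA-binding protein of nuclear transcripts, at 452 and 423 FPKM. In activation they had 742, 632 and 403 FPKM.

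The tissue label was checked by the neuronal genes elav, nSyb, Syt1 and brp and the glial gene repo. All 5 were present in every group, and their summed level was 274 FPKM in control, 321 FPKM in ablation and 295 FPKM in activation. The glial gene repo had 44.8 FPKM in control, 30.5 FPKM in ablation and 27.9 FPKM in activation, while each of the 4 neuronal genes had its lowest value in control. The part of this difference in the change of main transcripts was not tested. Markers of tissues next to the brain differed between the groups. The sum of 4 midgut genes was 4.29 FPKM in control, 899 FPKM in ablation and 2.82 FPKM in activation, that of 5 fat body genes was 124, 329 and 35.2 FPKM, and that of 4 cuticle genes was 1558, 476 and 226 FPKM. Salivary gland genes summed to 247, 157 and 66.1 FPKM, muscle genes to 44.6, 55.1 and 22.4 FPKM, and haemocyte genes to 12.7, 10.1 and 7.99 FPKM. Single genes within a sum could go opposite ways. From control to ablation, Sgs8 went from 184 to 60.5 FPKM and Sgs7 from 47.6 to 87.5 FPKM. Among muscle genes, up went from 13.1 to 7.31 FPKM and Act57B from 29.4 to 39.8 FPKM. The part of these tissue markers in the change of main transcripts was not tested. Summed over its transcripts, the dynamin gene shi had 69.5 FPKM in control, 74.4 FPKM in ablation and 74.0 FPKM in activation. The gene w (white), an allele of which is named in the genotypes, had 3.55, 2.83 and 25.9 FPKM.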

How the data were processed

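The authors deposited 3 Cuffdiff tables of 21081 transcripts, made with TopHat2, Cufflinks and Cuffdiff on dm3 per the submitters' processing notes. The versions, options and gene models were not given in the sources used here, apart from the build. The authors gave FPKM, with 1 value for each group of a table and a separate scaling of each table. The tables call the activation group induction. The deposited log2 fold change and the test statistic, a score, were not used, while Cuffdiff's p-value and q-value are quoted as the authors deposited them. Control and ablation values are from the table of these groups and activation values from the table with control, unless the direct table is named. Control gene sums differ 1.03 times between the tables as a median, and control shares by at most 0.814 percentage points.

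Genes were matched by CG number to RefSeq symbols, 100 of the 108 by locus tag and 8 by synonym. The members, lists and comparisons were chosen with earlier results of these data known. All 108 genes were counted; the text names the 20 with the largest smaller gain, those in a list, and those next to the threshold. Gdh, ATPCL, Pfk, Treh, ImpL2, CrebB, Diap1, Fas3, Mvl, Eip93F, bbc and CG11357 were named after their values were seen. The entries blw, hiw and dsx of the RNA-processing list, which are no such genes, were left out after the data were seen. Coordinates are of the deposited loci, counted from 1. How often the search for changed main transcripts finds a change where there is none was not tested. Python 3.11.15 with numpy 2.4.6, pandas 2.3.3 and matplotlib 3.10.9 was used.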

Additional observations from a re-analysis of the deposited data

How the results depend on the processing

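The number of genes was 108 as reported, 42 with a gain of at least 50 percentage points, 190 with gene sums of at least 5 FPKM and 41 with at least 50 FPKM. It was 161 with a gain of at least 20 points, 98 where each transcript of at least 1 FPKM was testable, 80 where neither transcript was listed at 0, and 108 with the direct table added. That last count was nearly fixed in advance. The direct table holds values of the same pools, and the rule already required a shared leading transcript. The median log2 difference of gene sums with pseudocounts of 0.1 and 5 and after centring on the qualifying genes was -0.20, -0.19 and -0.18 in ablation against control. It was -0.0906, -0.0875 and -0.10 in activation against control, and -0.0763, -0.0674 and -0.0402 in ablation against activation. With shares of FPKM + 1 the median share of the shared transcript was 29.6% in control, 74.8% in ablation and 77.5% in activation, and 13 of the 108 genes had a gain under 30 points. For RNA-processing genes the medians with pseudocounts of 0.1 and 5 and with all entries were -0.0383, -0.0357 and -0.0589 in ablation against control, 0.0991, 0.0951 and 0.0974 in activation against control and -0.124, -0.121 and -0.112 in ablation against activation. At q of at most 0.1, 0 transcripts of the 108 genes were called in each of the 3 tables. The shares with FPKM + 1 of single genes, the q of 0.1 and the settings for RNA-processing genes were chosen after seeing the data. No paired analysis was possible because the tables hold no value per replicate, and for the same reason no replicate could be left out. Depth is unknown, so it is not known which differences in low transcripts it could show.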
